A study of Homo sapiens with 4 samples.

Results

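CDK inhibitors are the proteins that bind cyclin-dependent kinases and halt the cell cycle. The genes described here were 6 chosen by symbol, CDKN1A and CDKN1B of the Cip/Kip family and CDKN2A, CDKN2B, CDKN2C and CDKN2D of the INK4 family. The array's annotation named features for 5 of the 6, so that 5 of 18334 measured genes were members. CDKN2C had 0 features under its symbol and is not analysed here. The 5 genes were covered by 36 features of 7 transcript accessions, and 0 of the 36 features were listed at exactly 0 on any array. Features of one accession were averaged first and the accessions were then compared.

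The samples were LNCaP cells, an androgen-responsive line from a lymph node metastasis of a prostate carcinoma. All dishes had been kept without serum for 24 h before 1 µM 5-azacytidine, a cytidine analogue that traps DNA methyltransferases, or its solvent DMSO was added for 24 h or for 48 h. Each of the 4 arrays paired DMSO RNA in Cy3 with azacytidine RNA of the same time in Cy5, with 2 arrays at each time. Because the dyes were not swapped, a dye effect and the treatment cannot be told apart, and nothing in the labels ties replicates to separate cultures, so the p-values measure only the spread between arrays. Every value below is a log2 ratio of azacytidine over DMSO, given for each array or as mean ± SD with n = 2 arrays a time, and a value of 1 means 2-fold. The base and the direction were taken from the scanner software's convention and the labelled dyes. In RNA from whole dishes, a change in the mix of cells and a change within each cell cannot be told apart. Each array has DMSO RNA of its own time. A ratio that differs between the times can therefore reflect either RNA, and these cannot be told apart.

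The Cip/Kip proteins p21, from CDKN1A, and p27, from CDKN1B, bind cyclin-CDK complexes and restrain CDK2 above all. The INK4 proteins p16, p15, p18 and p19, from CDKN2A, CDKN2B, CDKN2C and CDKN2D, bind CDK4 and CDK6 alone and keep D-type cyclins from activating them. Both routes leave the retinoblastoma protein unphosphorylated and E2F factors silent. CDKN1A is the best known target of p53, and the promoters of CDKN2A and CDKN2B are silenced by methylation in many tumours.

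The sequences of 3 promoters are shown because the methyltransferases that azacytidine traps methylate cytosines in CG dinucleotides. They were chosen as those of the 2 genes called higher than DMSO at 24 h and of the gene called lower at 48 h. Each runs 5′ to 3′ from 250 bases before to 50 bases after the transcription start in RefSeq's GRCh38.p14 table, with CG dinucleotides in capitals. They were CDKN1A (chr6:36678464-36678763, plus strand), CDKN2B (chr9:22009256-22009555, minus strand) and the start of CDKN2A from which p16 is read (chr9:21974808-21975107, minus strand).
CDKN1A: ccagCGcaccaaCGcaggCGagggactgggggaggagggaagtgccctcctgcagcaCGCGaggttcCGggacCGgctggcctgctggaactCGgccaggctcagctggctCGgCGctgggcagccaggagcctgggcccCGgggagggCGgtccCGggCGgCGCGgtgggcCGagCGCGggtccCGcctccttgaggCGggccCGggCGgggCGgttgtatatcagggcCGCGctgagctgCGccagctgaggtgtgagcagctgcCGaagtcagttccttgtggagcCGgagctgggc
CDKN2B: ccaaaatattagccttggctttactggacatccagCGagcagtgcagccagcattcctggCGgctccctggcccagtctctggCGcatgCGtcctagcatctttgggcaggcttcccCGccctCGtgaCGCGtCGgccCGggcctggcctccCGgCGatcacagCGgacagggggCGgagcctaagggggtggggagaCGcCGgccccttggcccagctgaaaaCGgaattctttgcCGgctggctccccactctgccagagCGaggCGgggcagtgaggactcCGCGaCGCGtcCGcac
CDKN2A: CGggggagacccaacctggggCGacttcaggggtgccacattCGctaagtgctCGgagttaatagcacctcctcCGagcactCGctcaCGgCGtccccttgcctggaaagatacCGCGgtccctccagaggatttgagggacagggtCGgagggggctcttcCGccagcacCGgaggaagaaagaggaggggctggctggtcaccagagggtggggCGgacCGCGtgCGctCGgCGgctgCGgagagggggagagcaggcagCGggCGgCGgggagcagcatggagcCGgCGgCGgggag
All 3 held more CG than the median of 14 over 35116 RefSeq promoters of 300 bases, with 29 in CDKN1A, 25 in CDKN2B and 26 in CDKN2A. Of all promoters, 75.8% held fewer than CDKN1A, 68.0% fewer than CDKN2B and 69.9% fewer than CDKN2A, so such counts are common. The measured members that did not pass at 24 h were above the median too. CDKN1B held 29 in its window and CDKN2D 36, and the other CDKN2A start, from which ARF is read, held 28. The starts of CDKN2C, which was not measured, held 8, 37 and 11, so not every member start lay above the median. The GC box GGGCGG, the motif of Sp1, which itself contains a CG, was looked for on both strands. It was found 3 times in CDKN1A, 2 times in CDKN2B, 2 times at the p16 start, 0 times at the ARF start, once in CDKN1B and 3 times in CDKN2D, and in 45.0% of all promoters at least once. Methylation was not measured on these arrays.

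**Figure D1:**
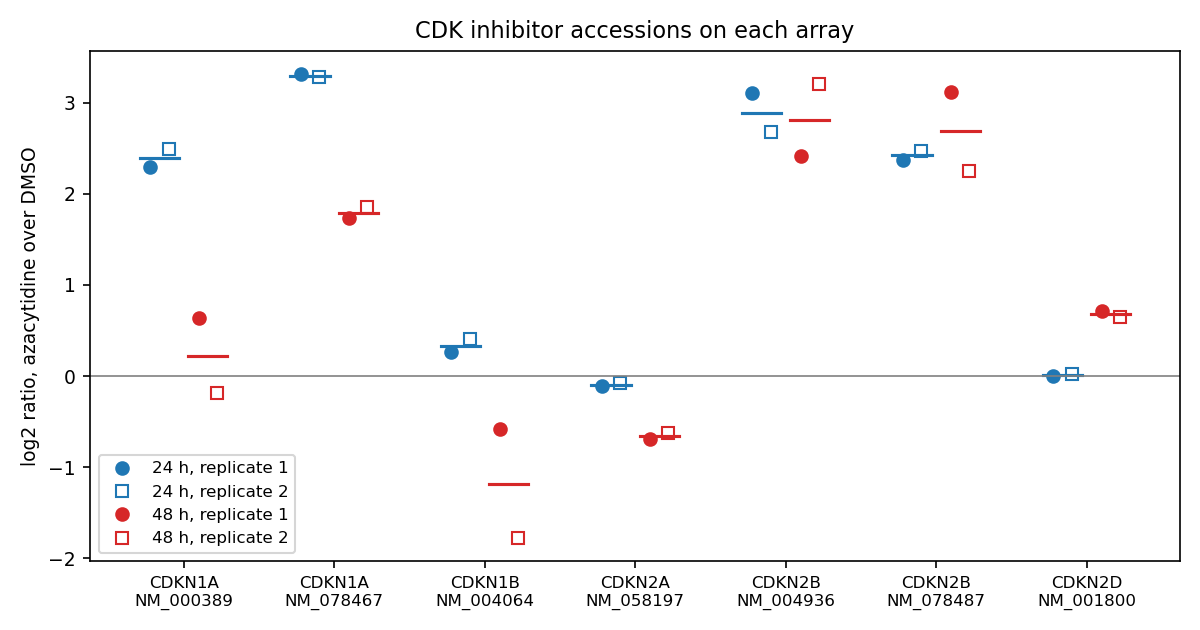
Log2 ratio of azacytidine over DMSO (y axis) for the 7 CDK inhibitor accessions (x axis) on each array, blue at 24 h and red at 48 h, with replicate 1 as filled circles, replicate 2 as open squares and the mean of each time as a line. Both accessions of CDKN2B stayed between 2.25 and 3.21 on all 4 arrays, whereas those of CDKN1A were lower on both 48 h arrays than on both 24 h arrays.

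At 24 h CDKN1A and CDKN2B were higher than in DMSO and the other members did not pass the test. In limma, with p-values adjusted over all 21898 accessions and a threshold of 0.05, 4 of the 7 accessions were higher, 0 were lower and 3 did not pass. Over all accessions 21.2% were called at that time, 12.5% higher and 8.75% lower. At 48 h the ratio of CDKN2B was still high and that of CDKN1A was lower than at 24 h. CDKN2D was then higher than in DMSO and CDKN2A lower, with 4 accessions higher, 1 lower and 2 not passing. Over all accessions 35.7% were called at 48 h, 16.6% higher and 19.1% lower. In the gene fit, where the accessions of a gene were averaged, 2 of 5 genes were higher at 24 h and 0 lower (23.9% called over all genes, 14.1% higher and 9.85% lower). At 48 h 3 of 5 were higher and 1 lower (38.6% called over all genes, 18.1% higher and 20.5% lower).

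CDKN1A, which encodes p21, was measured by 10 features of accession NM_000389 and by 1 feature of NM_078467, a transcript that differs in its first exon and encodes the same protein. The single NM_078467 feature read 3.31 and 3.28 at 24 h and 1.73 and 1.85 at 48 h. All 4 values lay far above 0, and those of 48 h lay below those of 24 h with no overlap. The mean was 3.30 ± 0.024 at 24 h, a 9.83-fold ratio, and 1.79 ± 0.083 at 48 h, a 3.46-fold ratio. Both passed the limma test (adjusted p = 0.0151 at 24 h and 0.00783 at 48 h). At 24 h only 250 of 21898 accessions had a higher mean, and at 48 h 1237 did.

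The other CDKN1A accession, NM_000389, read 2.29 and 2.49 at 24 h and 0.64 and -0.19 at 48 h. The 24 h arrays were both high, while the 48 h arrays fell on either side of 0. Its mean of 2.39 ± 0.14 at 24 h, a 5.24-fold ratio, passed (limma adjusted p = 0.0332), and its mean of 0.22 ± 0.59 at 48 h did not (adjusted p = 0.576). The 10 features of this accession were tight within each array. They ranged from 2.26 to 2.35 and from 2.44 to 2.58 at 24 h, and from 0.56 to 0.67 and from -0.26 to -0.11 at 48 h. The gap between the 48 h arrays, -0.83 from replicate 1 to replicate 2, was thus shared by all 10 features and far exceeded their spread. Fitted feature by feature, 10 of 10 were higher at 24 h, when 21.4% of all features were called, 12.7% higher and 8.7% lower. At 48 h 0 of 10 were called, against 36.6% of all features, 16.9% higher and 19.7% lower. In the difference 3 of 10 were called lower, against 23.9% of all features, 10.5% higher and 13.4% lower. The sources used here do not say whether the 10 are copies of one probe, so these counts need not be of separate readings.

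The accessions of CDKN1A disagreed in size. NM_078467 exceeded NM_000389 by 1.02 and 0.79 at 24 h and by 1.09 and 2.04 at 48 h. The gap had one sign on all 4 arrays and was widest on 48 h replicate 2, the array on which NM_000389 lay below 0. Averaged over both accessions, CDKN1A stood at 2.84 ± 0.058 at 24 h and at 1.01 ± 0.25 at 48 h, and both passed (limma adjusted p = 0.0137 and 0.0217). With the 11 features weighted equally in place of the accessions, the 48 h mean was 0.37 and did not pass (adjusted p = 0.309), so the 48 h call of the gene rests on the single NM_078467 feature.

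CDKN1B, which encodes p27, read 0.26 and 0.40 at 24 h and -0.58 and -1.78 at 48 h on its only accession, NM_004064. Both 24 h values were slightly above 0 and both 48 h values below it, with a wide gap between the 48 h arrays. The means of 0.33 ± 0.100 at 24 h and -1.18 ± 0.85 at 48 h did not pass (limma adjusted p = 0.588 and 0.110). Without 48 h replicate 1 the 48 h value was -1.78, and without 48 h replicate 2 it was -0.58. Each is the value of the single 48 h array left, so these fits hold no spread between 48 h arrays. The 48 h value also passed once features listed at 0 were removed (adjusted p = 0.0295, range over the settings 0.0266 to 0.274).

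Of the 11 CDKN1B features, 10 moved together and 1 did not. On 48 h replicate 2 the 10 lay between -2.17 and -1.82, and the remaining feature was at 0.39. On 48 h replicate 1 the 10 lay between -0.65 and -0.53 and the remaining one at -0.33, and at 24 h it was the lowest, at 0.05 and 0.25. On 24 h replicate 2, 1 of the 10 was at 0.81, where the median of the 11 features was 0.39. Fitted singly, 0 of the 11 features passed at either time, so neither kind was called. The feature that stood apart at 48 h, like the one at 0.81, was identified after the values were seen. The sources used here do not say which part of the transcript either reads. Nor do they say whether the other 10 are copies of one probe, so the split need not be 10 separate readings against 1. The accession mean weights every feature equally.

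**Figure D2:**
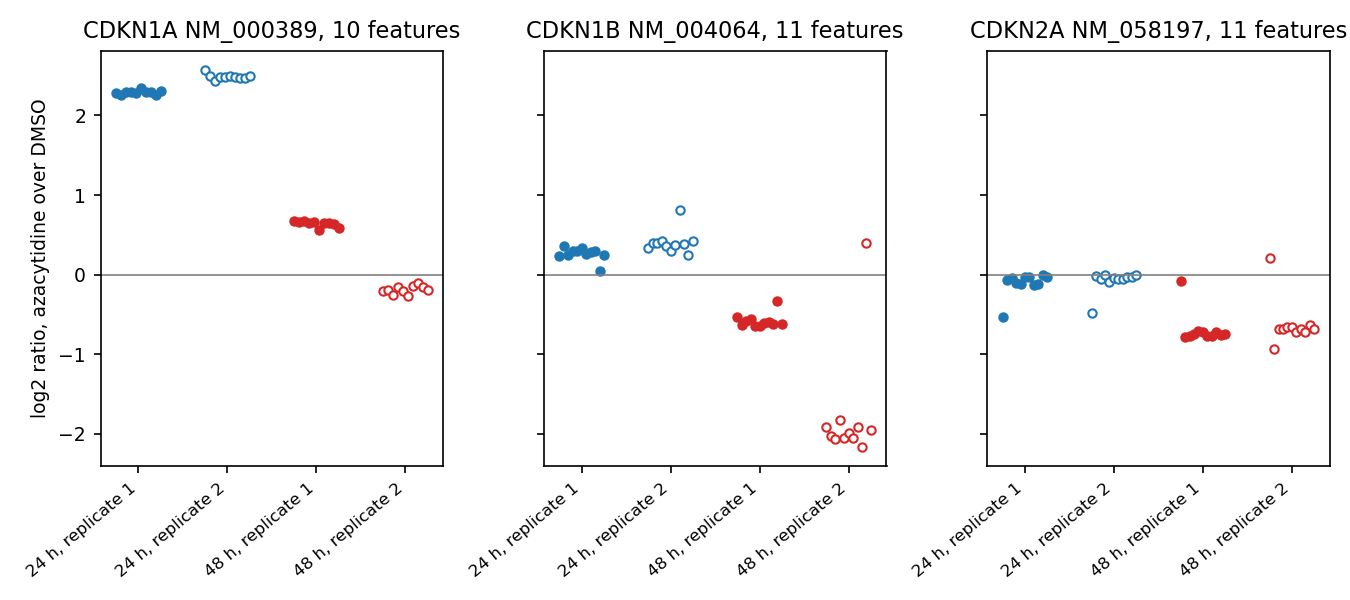
Log2 ratio of azacytidine over DMSO (y axis) for each feature of the 3 accessions with several features, on each of the 4 arrays (x axis), blue at 24 h and red at 48 h, filled for replicate 1 and open for replicate 2. Most features of one accession lay close together within an array. On 48 h replicate 2, 1 CDKN1B feature stood apart at 0.39 and 1 CDKN2A feature at 0.21. On 24 h replicate 2 another CDKN1B feature was at 0.81.

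CDKN2B, which encodes the INK4 protein p15 and lies beside CDKN2A on chromosome 9, had 2 accessions with 1 feature each. NM_004936, the full p15 transcript, read 3.10 and 2.68 at 24 h and 2.42 and 3.21 at 48 h. NM_078487, a spliced form with a shorter product, read 2.38 and 2.46 at 24 h and 3.12 and 2.25 at 48 h. Every value was above 2, and the times overlapped for both transcripts.

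The 24 h means were 2.89 ± 0.30 for NM_004936, a 7.42-fold ratio, and 2.42 ± 0.063 for NM_078487, a 5.35-fold ratio. At 48 h they were 2.81 ± 0.56 and 2.68 ± 0.61. All 4 passed the limma test (adjusted p = 0.0282 and 0.0333 at 24 h, 0.0201 and 0.0204 at 48 h). The replicates of the 48 h arrays went opposite ways, with NM_004936 higher by 0.79 and NM_078487 lower by 0.86 on replicate 2 than on replicate 1. These gaps cancelled in the gene mean of 2.75 ± 0.026, whose SD therefore understates the disagreement of the features. Without 48 h replicate 2 the NM_004936 call was lost, with a single array left at that time (value 2.42). With the arrays scaled to one spread the 48 h call of NM_078487 was lost too (value 2.37, limma adjusted p = 0.0565).

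CDKN2A, which encodes p16 and, from another first exon, the p53-stabilising protein ARF, read -0.11 and -0.08 at 24 h and -0.69 and -0.63 at 48 h. Its 11 features carry one accession, NM_058197, a variant that shares its first exon with p16. The files do not say which of the products each feature reads. At 24 h both arrays lay near 0, and at 48 h both were lower with little spread. The mean of -0.095 ± 0.023 at 24 h did not pass (limma adjusted p = 0.167), and that of -0.66 ± 0.045 at 48 h, a 0.634-fold ratio, did (adjusted p = 0.0110).

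As with CDKN1B at 48 h, 10 of the 11 CDKN2A features moved together. They lay between -0.79 and -0.70 on 48 h replicate 1 and between -0.94 and -0.64 on 48 h replicate 2. Fitted singly, 10 were called lower at 48 h, against 19.7% of all features. The remaining feature was at -0.53 and -0.48 at 24 h, below the other 10, and at -0.08 and 0.21 at 48 h, above them, and it was not called. It too was singled out after its values were seen. Here too the sources do not say whether the 10 are copies of one probe, and the accession mean weights every feature equally.

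The measured neighbours of these genes on chromosome 9 did not follow a single course. CDKN2B-AS1, which had been chosen beforehand together with MTAP, had no feature among those used here. MTAP, a gene of methionine salvage, had a mean over 3 features of one accession of -0.52 ± 0.015 at 24 h (limma adjusted p = 0.0460) and of 0.31 ± 0.16 at 48 h (adjusted p = 0.0730). Its 3 features at 48 h ranged from -0.51 to 0.57 on replicate 1 and from 0.09 to 1.03 on replicate 2. The non-coding CDKN2A-AS1, named after its values were seen, read 1.46 and 1.29 at 24 h and 1.54 and 2.21 at 48 h on 1 feature. It passed at both times (adjusted p = 0.0498 and 0.0241), with a 24 h value that sat at the threshold.

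CDKN2D, which encodes p19, had 1 feature, of accession NM_001800. It read -0.0041 and 0.028 at 24 h and 0.71 and 0.65 at 48 h. The 24 h arrays lay at 0, and both 48 h arrays were higher by a margin many times their spread. The 48 h mean of 0.68 ± 0.044, a 1.61-fold ratio, passed (limma adjusted p = 0.0106), and the 24 h mean of 0.012 ± 0.023 did not (adjusted p = 0.885).

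The change between the times was tested as 48 h minus 24 h. Of the 7 accessions 1 was higher at 48 h and 2 were lower, and over all accessions 20.7% were called, 8.59% higher and 12.1% lower. Of the 5 genes 1 was higher and 2 were lower, against 22.5% of all genes called, 9.63% higher and 12.9% lower. The ratio of CDKN1A was lower by 1.51 at 48 h than at 24 h on NM_078467 (limma adjusted p = 0.0228). Its NM_000389 difference of -2.16 missed the threshold (adjusted p = 0.0556). The ratio of CDKN2A was lower at 48 h by 0.56 (adjusted p = 0.0309) and that of CDKN2D higher by 0.67 (adjusted p = 0.0277). With the arrays scaled to one spread neither difference passed (-0.46 with adjusted p = 0.0885 and 0.58 with adjusted p = 0.0614), while that of NM_000389 did (-2.57, adjusted p = 0.0300). CDKN1B had a difference of -1.51 that did not pass (adjusted p = 0.140). CDKN2B differed by -0.079 on NM_004936 and by 0.26 on NM_078487, and neither passed (adjusted p = 0.948 and 0.649), which does not show that its level was equal at both times. The size depended on the scaling. With the arrays scaled to one spread the differences were -1.09 and -0.50, and neither passed (limma adjusted p = 0.0971 and 0.648).

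**Figure D3:**
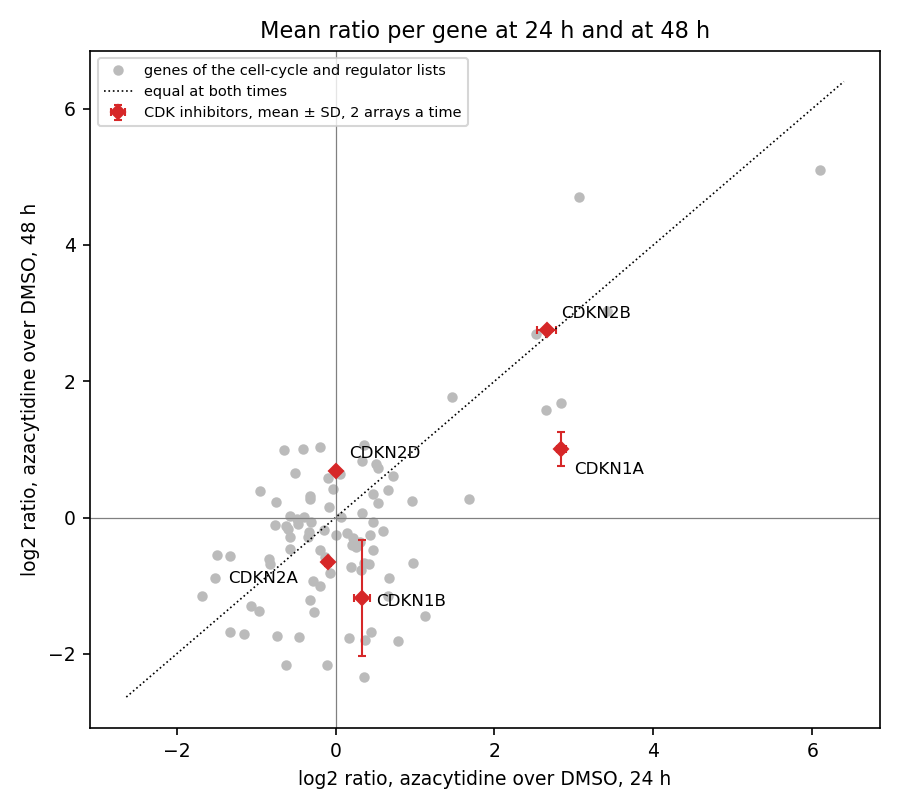
Mean log2 ratio at 24 h (x axis) against that at 48 h (y axis) for the 5 CDK inhibitor genes, accessions averaged (red diamonds with SD over 2 arrays), and for the genes of 7 cell-cycle and regulator lists (grey). CDKN2B lay at 2.66 and 2.75, near the dotted line of equal values, and CDKN1A at 2.84 and 1.01 lay below it.

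Ordered by gene mean, the members at 24 h were CDKN1A at 2.84, CDKN2B at 2.66, CDKN1B at 0.33, CDKN2D at 0.012 and CDKN2A at -0.095. CDKN1A and CDKN2B were neighbours whose accessions overlapped in range, and a wide gap separated them from the other 3. At 48 h the order was CDKN2B at 2.75, CDKN1A at 1.01, CDKN2D at 0.68, CDKN2A at -0.66 and CDKN1B at -1.18. CDKN1A and CDKN2D were within the range of the CDKN1A accessions there, and CDKN2A and CDKN1B within the spread of the CDKN1B arrays. These are ratios to DMSO, so the order says nothing of which transcript was most abundant.

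Genes with the most similar course were found by Euclidean distance over the 4 arrays in the gene fit, as a description. Nearest to CDKN1A were SAT1, which acetylates polyamines, at a distance of 0.55, UGT1A6 at 0.56, CPB1 at 0.60, DKK4 at 0.62 and FAM225A at 0.63. Within a distance of 0.5 of it lay 0 of the 18334 genes. Nearest to CDKN2B were the immediate early factor EGR1 at 0.285, the carbonic anhydrase gene CA12 at 0.289, RRAD at 0.297, LOC105376805 at 0.34 and SVOP at 0.36, and 17 genes lay within 0.5. CDKN2A and CDKN2D, whose ratios were small, had 679 and 592 genes within 0.5. Nearest to CDKN2A were NCS1, TSC22D4, TBX1, POLL and ZNF607, between 0.052 and 0.11, and nearest to CDKN2D were HTR7, MAP3K9, ZBED10P, TUT7 and ATG12, between 0.078 and 0.11.

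The kinases and cyclins that the inhibitors bind showed mixed ratios. Of 12 genes for G1 cyclins, their kinases and activators, 1 was higher and 2 lower at 24 h, with a list median of -0.066, and 1 was higher and 3 lower at 48 h, with a median of -0.44. The median over all genes was 0 at both times, with 47.9% of genes above 0 at 24 h and 44.4% at 48 h. From 6011 to 6695 features an array are listed at exactly 0. The median of 0 need not be the centre of the genes with other values. Of all genes, 23.9% were called at 24 h and 38.6% at 48 h. The 3 called of 12 at 24 h were thus near the share over all genes, and the 4 of 12 at 48 h were below it. CCND3, a D-type cyclin, went from 1.13 ± 0.069 at 24 h to -1.45 ± 0.39 at 48 h and passed at both times and in the difference (limma adjusted p = 0.0320). At 24 h MNAT1, of the CDK-activating kinase, was at -0.57 ± 0.14 and the phosphatase CDC25A at -0.84 ± 0.28, both lower, and the cyclin of S phase entry CCNE2 was at 0.97 ± 0.22 and did not pass (adjusted p = 0.0519). At 48 h cyclin D1, CCND1, was lower at -1.80 ± 0.31 and CDK2 lower at -1.73 ± 0.27, while CDK7 was higher at 0.58 ± 0.066.

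Among 10 genes of S phase and mitotic cyclins with CDK1 and its regulators, 2 were higher and 4 lower at 24 h (median -0.60) and 2 were higher and 6 lower at 48 h (median -0.51). Over all genes 14.1% were higher and 9.85% lower at 24 h, and 18.1% and 20.5% at 48 h. CCNA2, the cyclin of S phase and G2, was at -1.33 ± 0.089 and then -1.68 ± 0.19. The mitotic cyclin CCNB2 was at -1.49 ± 0.0028 and then -0.55 ± 0.079, and the phosphatase CDC25C at -1.52 ± 0.038 and then -0.88 ± 0.024, and all 3 passed at both times. CCNA1, a cyclin normally found in male germ cells, went the other way and was higher at 6.10 ± 0.48 and then 5.10 ± 0.64 (limma adjusted p = 0.0160 and 0.0119).

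Downstream, 13 genes of the RB family and of the E2F factors held 2 higher and 3 lower members at 24 h (median -0.29) and 0 higher and 5 lower at 48 h (median -0.40). The 5 called of 13 at 48 h were near the 38.6% called over all genes, and the 5 of 13 at 24 h stood beside 23.9%. RBL2, a pocket protein of resting cells, was higher at 24 h at 0.96 ± 0.14, and E2F2 was lower at -0.60 ± 0.093. The repressor E2F6 changed sign, from 0.42 ± 0.0042 to -0.68 ± 0.024, and passed at both times. TFDP2, a dimer partner of E2F factors, was lower at both times, at -0.96 ± 0.20 and -1.36 ± 0.19. Its relative TFDP1 was lower at 48 h at -1.76 ± 0.22, as was E2F5 at -2.33 ± 0.53.

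**Figure D4:**
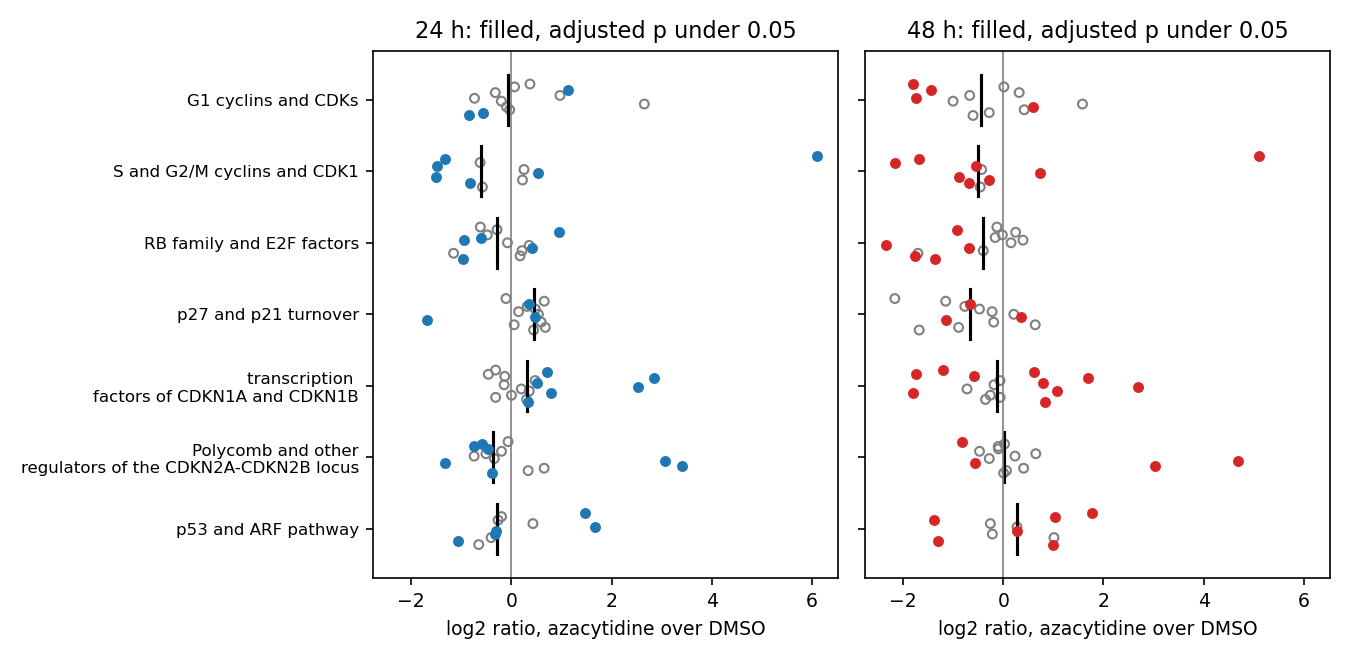
Mean log2 ratio of azacytidine over DMSO (x axis) for each measured gene of 7 lists (y axis) at 24 h (left) and 48 h (right), with filled points for genes past an adjusted p of 0.05 in limma, open points for the rest and a black line at each list's median. CCNA1 lay farthest right at both times, at 6.10 and 5.10, and the list medians lay between -0.66 and 0.44.

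Genes that control the turnover of p27 and p21 proteins, 13 in all, held 2 higher and 1 lower member at 24 h (median 0.44) and 1 higher and 2 lower at 48 h (median -0.66). With 3 of 13 called at each time, the list was near the 23.9% over all genes at 24 h and below the 38.6% at 48 h. DTL, the substrate receptor through which p21 is degraded in S phase, was lower at -1.68 ± 0.18 and then -1.14 ± 0.029. DDB1, its adaptor, was higher at 0.47 ± 0.050 and then 0.35 ± 0.071. CUL1, the cullin of the ligase that degrades p27, was higher at 0.36 ± 0.021 and then lower at -0.66 ± 0.044 (limma adjusted p = 0.0232 for the difference). CUL4B was at 0.54 ± 0.15 at 24 h and UHMK1, a kinase that acts on p27, at -0.89 ± 0.39 at 48 h, and neither passed there (adjusted p = 0.0766 and 0.0501).

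Of 16 measured transcription factors known to act on CDKN1A or CDKN1B, 6 were higher and 0 lower at 24 h (median 0.32), and 6 were higher and 4 lower at 48 h (median -0.13). Over all genes 23.9% were called at 24 h, 14.1% higher, and 38.6% at 48 h, 18.1% higher and 20.5% lower. KLF4, a zinc finger factor that activates CDKN1A, was at 2.84 ± 0.045 and then 1.69 ± 0.22, and EGR1 was at 2.52 ± 0.042 and then 2.69 ± 0.14. FOXO1, of the family that activates CDKN1B, was at 0.72 ± 0.061 and then 0.62 ± 0.084. CEBPB was at 0.33 ± 0.032 and then 0.84 ± 0.031, and KLF4, EGR1, FOXO1 and CEBPB passed at both times. The other FOXO genes on the list, named after their values were seen, went the other way at 48 h. FOXO3 was at -0.46 ± 0.061 at 24 h, where it did not pass, and lower at -1.75 ± 0.40 at 48 h (limma adjusted p = 0.171 and 0.0182). FOXO4 was at -0.13 ± 0.11 and then lower at -0.58 ± 0.085 (adjusted p = 0.253 and 0.0216). SMAD4, the shared partner of TGF-beta signalling, was higher at 0.79 ± 0.14 and then lower at -1.81 ± 0.068.

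Of 14 measured Polycomb genes and other regulators of the CDKN2A and CDKN2B locus, 2 were higher and 5 lower at 24 h (median -0.37), and 2 were higher and 2 lower at 48 h (median 0.016). The 7 called of 14 at 24 h stood beside 23.9% over all genes, and the 4 of 14 at 48 h were below the 38.6%. TBX2, a T-box repressor of the locus, was at 3.06 ± 0.041 and then 4.70 ± 0.51. ID1, which opposes the activation of p16, was at 3.42 ± 0.35 and then 3.04 ± 0.45, and TBX3 was lower at -1.33 ± 0.032 and then -0.56 ± 0.24, all past the threshold at both times. PHC1 was lower at 24 h at -0.76 ± 0.17 and BMI1 at 48 h at -0.82 ± 0.34, both members of Polycomb complexes.

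In the p53 and ARF pathway 10 genes were measured, of which 2 were higher and 3 lower at 24 h (median -0.29) and 4 were higher and 2 lower at 48 h (median 0.28), against 23.9% of all genes called at 24 h and 38.6% at 48 h. MDM2, the p53 target that degrades p53, was at 1.47 ± 0.0028 and then 1.77 ± 0.17. The phosphatase PPM1D was higher at 24 h at 1.67 ± 0.21, and the checkpoint kinase CHEK1 was lower at both times, at -1.07 ± 0.081 and -1.30 ± 0.21. HIPK2, a kinase that acts on p53, was at -0.32 ± 0.043 and then 0.28 ± 0.011, and MDM4 was higher at 48 h at 1.03 ± 0.15.

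Replicate arrays differed by a median of 0.132 at 24 h and 0.347 at 48 h. Without either of the 24 h arrays limma called 0 accessions at either time (4377 and 4168 at an unadjusted p under 0.05 at 24 h, and 7147 at 48 h). For 48 h those fits equal the one with only the 48 h arrays, in which the 48 h calls of the members were lost (limma adjusted p from 0.0984 to 0.124). 48 h replicate 2 had the widest ratios, with an SD over features of 1.39 against 0.965 to 1.15 on the others, and it is the array with the low CDKN1B value. Ratios give no levels, so the LNCaP label could not be checked against marker levels. Of 8 luminal prostate markers measured 2 were higher and 2 lower at 24 h and 3 and 4 at 48 h, with ratios from -1.52 to 1.52 and from -2.56 to 1.34. Of 4 basal markers 2 were higher and 0 lower at each time, up to 3.69 and 4.74. Of 3 neuroendocrine markers 0 passed at 24 h, and 1 was higher and 1 lower at 48 h. Of 5 stromal markers 1 was higher and 0 lower, then 1 and 2, and of 5 leukocyte and endothelial markers 1 was higher and 0 lower at each time. Their part in the results on CDK inhibitors was not tested.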

How the data were processed

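The deposited table holds log10 ratios of 4 two-colour Agilent arrays, which the authors made with Agilent Feature Extraction 8.5.1.1 per the submitters' processing notes. The sources used here do not state settings or centring, and column medians were 0. Each value, taken as the log10 ratio of Cy5 to Cy3, was converted to log2. Of 45220 rows 43376 had values and 31332 of these had 1 gene symbol in the platform annotation, of which 31291 had a gene identifier in RefSeq's GRCh38.p14 table. Features were averaged by accession (21898 rows) and accessions by gene (18334). Each table went through limma (version 3.58.1, R version 4.3.3) with a mean for either time, all 4 arrays sharing the spread, and Benjamini-Hochberg adjustment over all rows. The fits had 2 residual degrees of freedom. They were run on simulated independent normal noise with equal spread at both times, which imitates neither effects shared by an array nor the wider 48 h spread. Same-numbered arrays did not deviate together (r = -0.042 across accessions), so the replicate number was not taken as pairing. The number of arrays limits precision.

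Members, lists and tests were chosen with earlier results of these data known. Named were all members, from each list the 4 genes with the lowest p at each time, and for each member past the threshold the 5 nearest genes. CDKN2A-AS1, FOXO3 and FOXO4 were added after their values were seen. Alternatives were a replicate block, 2 array scalings, the median of features, single or equally weighted features, removal of zeros, robust moderation, arrays of one time, a 2-fold minimum and each array left out. Figures were drawn with matplotlib 3.10.9.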

Additional observations from a re-analysis of the deposited data

Results flagged for a closer look

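The accessions of 3 CDK inhibitors differed between 24 h and 48 h in the limma test of the difference itself. For CDKN1A NM_078467 the ratio was lower at 48 h by -1.51 on the log2 scale (adjusted p = 0.0228, range over the settings 0.0113 to 0.223), with both 48 h arrays below both 24 h arrays. CDKN2A NM_058197 had a difference of -0.56 (adjusted p = 0.0309, range 0.0279 to 0.226), again with no overlap between the times. For CDKN2D NM_001800 the difference was 0.67 (adjusted p = 0.0277, range 0.0259 to 0.223), with both 48 h arrays above both 24 h arrays. The CDKN1A and CDKN2D values come from 1 feature each, and the CDKN2A value from 11 features of which 1 went the other way. Whether the rest are copies of one probe is not stated in the sources used here.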

How the results depend on the processing

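Of 257 values of member accessions under alternatives, 192 kept their direction and side of the threshold, 48 lost the call, 10 gained it and 7 turned sign. Some alternatives are the same fit for a given time. That with arrays of one time only equals those without an array of the other time, so the tally counts such outcomes more than once. With a replicate block limma called 0 accessions and 0 genes at 24 h, at 48 h and in the difference (7317, 9288 and 8144 accessions at an unadjusted p under 0.05), against 4653, 7816 and 4523 accessions and 4389, 7070 and 4129 genes without it. Both replicate numbers occur at each time, so the block could not change the members' values, and it left fewer residual degrees of freedom. All the members' calls ended (limma adjusted p from 0.0636 to 0.114). These were CDKN1A NM_000389 at 24 h (2.39), CDKN1A NM_078467 (3.30, 1.79 and a difference of -1.51), CDKN2A (-0.66 at 48 h, difference -0.56), CDKN2B NM_004936 (2.89 and 2.81), CDKN2B NM_078487 (2.42 and 2.68) and CDKN2D (0.68 at 48 h, difference 0.67). With arrays of one time only, the 48 h count was 0 accessions (7147 unadjusted) and 0 genes, and the 48 h values of CDKN1A NM_078467 (1.79), CDKN2A (-0.66), CDKN2B (2.81 and 2.68) and CDKN2D (0.68) were unchanged but not called. Scaling the arrays to one spread gave 8537 accessions and 7697 genes at 24 h and 7645 and 6554 in the difference, and quantile normalization gave 8323 and 7487, and 8034 and 6914. At 24 h the split was 2737 higher and 1916 lower, then 4344 and 4193 when scaled and 3992 and 4331 with quantiles, and in the difference 1880 and 2643, then 3754 and 3891, and 4456 and 3578. The corresponding gene splits were 2584 and 1805, 4093 and 3604, and 3704 and 3783 at 24 h, and 1766 and 2363, 3129 and 3425, and 3792 and 3122 in the difference. When scaled, the CDKN1A NM_000389 difference of -2.57 passed (adjusted p = 0.0300), while CDKN2A (-0.46) and CDKN2D (0.58) no longer differed between times and CDKN2B NM_078487 was not called at 48 h (2.37). The CDKN2B difference turned to -0.50 for NM_078487 and -0.79 for the gene, and that of NM_004936 widened to -1.09 without passing. With quantiles the NM_000389 difference was -2.20 and passed, that of CDKN2A was -0.35 and did not, the CDKN2B gene difference turned to -0.23 and CDKN2D at 24 h to -0.028. Removing features at 0 gave 8642 accessions and 7319 genes in the difference, and removing rows at 0 on all arrays gave 8064 and 6795. Both let the CDKN1A NM_000389 difference (-2.16) and CDKN1B at 48 h (-1.18) pass and ended the CDKN2A difference (-0.56), and the first also let the CDKN1B difference (-1.51) pass. Fewer rows were tested in these settings, yet without rows at 0 on all arrays the calls rose to 6254 accessions at 24 h and 9893 at 48 h. Such rows cannot be called. The shares over all rows include them, while no member was among them. In the difference, single features gave 7482 calls and robust moderation 2567 accessions and 2572 genes. A 2-fold minimum left 2384, 4670 and, for genes, 2106, 3988 and 2722. Leaving out one array moved the counts from 0 to 6936 (24 h), 9246 (48 h) and 8797 (difference) for accessions and from 0 to 6520, 8230 and 7683 for genes, with 0 whenever a 24 h array was missing. With 2 arrays a time, the value left without one array is that of the other array. The ranges at each time therefore repeat the arrays given above and are not a separate check. At 24 h the values without one array ranged from 2.29 to 2.49 (CDKN1A NM_000389), 3.28 to 3.31 (NM_078467), 2.68 to 3.10 (CDKN2B NM_004936), 2.38 to 2.46 (NM_078487) and -0.0041 to 0.028 (CDKN2D). At 48 h they ranged from -0.19 to 0.64 (NM_000389), 1.73 to 1.85 (NM_078467), -1.78 to -0.58 (CDKN1B), -0.69 to -0.63 (CDKN2A), 2.42 to 3.21 (NM_004936), 2.25 to 3.12 (NM_078487) and 0.65 to 0.71 (CDKN2D). Differences ranged from -2.58 to -1.75 (NM_000389), -1.56 to -1.45 (NM_078467), -2.11 to -0.91 (CDKN1B), -0.59 to -0.53 (CDKN2A), -0.47 to 0.32 (NM_004936, also 0.13 without 24 h replicate 1), -0.17 to 0.70 (NM_078487) and 0.64 to 0.70 (CDKN2D). Of the counts of called genes in the 7 lists, 318 stayed within 1.5 times under an alternative and 214 moved further. This tally repeats the same fits too. The causes were not tested. Each time had 2 arrays and no signal over background was used here, which limits what small ratios can show.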
